A study of Mus musculus with 6 samples.

Results

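The genes described are Cd3e, Cd3d, Cd3g and Cd247, which encode the chains of the CD3 complex, and Cd4, which encodes the coreceptor of helper T cells. They were taken by name as 5 rows of a table of 23505 genes, and each of the 5 had a row and enough counts to be tested. The table comes from RNA sequencing of CD4+ T cells from the livers of wild type mice in which hepatitis was induced with ConA, the lectin concanavalin A, a T cell mitogen. The ConA group (3 libraries) was gavaged with PBS and the ConA+SIM group (3 libraries) with simvastatin, a statin that blocks cholesterol synthesis, at 30 mg/kg. Gavage was daily in the 5 days before ConA, with further doses 1 h before and 24 h after it, and all 6 libraries come from ConA-injected mice, so no uninjected baseline is given. Cells were gated as positive for CD3 and CD4 and negative for CD8 and NK1.1, so the sort itself rested on proteins these genes encode. The labels give no strain, age or number of mice per library, and do not say whether libraries of a group came from separate animals, so p-values measure only the spread between these libraries, which may be technical.

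The T cell antigen receptor binds peptide and MHC through its alpha and beta chains, which have almost no signalling tail of their own. Signalling runs through the CD3 chains: epsilon pairs with gamma and with delta, and zeta, the product of Cd247, forms a dimer with itself. Each of these chains carries ITAMs, tyrosine motifs that the kinase LCK phosphorylates and that then dock the kinase ZAP70. CD4 binds MHC class II outside the cell and LCK inside it, which brings the kinase to the receptor. Assembly in the endoplasmic reticulum needs every chain, and zeta joins last. ConA crosslinks glycoproteins at the T cell surface, the receptor among them.

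Cd3g, Cd3d and Cd3e lie in a cluster on mouse chromosome 9, in GRCm38. Cd3g (chr9:44969572-44980431, minus strand) and Cd3d (chr9:44981769-44987052, plus strand) are transcribed away from each other from starts 1338 bp apart. Cd3e (chr9:44998735-45009663, minus strand) starts 27894 bp beyond Cd3d. Cd247 (chr1:165779952-165871153, plus strand) and Cd4 (chr6:124864693-124888247, minus strand) lie on chromosomes 1 and 6. In GENCODE release M21, 590 exon bases of Cd3e lie within the span of Gm48719, an antisense gene, and 198 exon bases of Cd247 within that of Gm16565, a noncoding gene on the same strand. No strand setting is given in the sources used here, so reads from Cd3e and its antisense partner cannot be told apart.

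The start regions of the CD3 chain genes are shown because the head-to-head genes Cd3g and Cd3d had higher values in every ConA+SIM library, while Cd3e overlapped between the groups. The RefSeq promoter table of GRCm38.p6 matched 4 of the 5 genes, all but Cd4, and each window runs from 250 bases before the start that table uses to 30 after it, read 5′ to 3′ on the gene's own strand. That start is the end of the gene given above for Cd3g, but lies 17 bases inside the gene for Cd3d, 52 bases inside for Cd3e and 8729 bases inside for Cd247, so the Cd247 window is not upstream of the outermost start of that gene. Capitals mark the E-box letters CACCTG, a core bound by E proteins, and the letters ACTTCC, a core of ETS factor sites. Both strands were searched, so CAGGTG and GGAAGT as well, of which only CAGGTG was found, in the Cd247 window.
Cd3g, chr9:44980402-44980681, minus strand: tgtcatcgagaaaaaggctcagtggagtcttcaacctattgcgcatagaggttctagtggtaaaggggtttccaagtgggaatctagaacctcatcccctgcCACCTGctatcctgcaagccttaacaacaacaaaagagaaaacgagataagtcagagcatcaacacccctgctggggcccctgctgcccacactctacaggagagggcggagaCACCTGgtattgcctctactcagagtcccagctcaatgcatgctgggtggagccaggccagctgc
Cd3d, chr9:44981536-44981815, plus strand: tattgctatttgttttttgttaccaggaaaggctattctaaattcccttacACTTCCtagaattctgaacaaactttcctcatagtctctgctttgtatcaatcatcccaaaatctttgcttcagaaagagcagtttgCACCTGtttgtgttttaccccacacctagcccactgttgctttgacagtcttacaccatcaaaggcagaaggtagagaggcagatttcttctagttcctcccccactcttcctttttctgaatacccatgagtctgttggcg
Cd3e, chr9:45009582-45009861, minus strand: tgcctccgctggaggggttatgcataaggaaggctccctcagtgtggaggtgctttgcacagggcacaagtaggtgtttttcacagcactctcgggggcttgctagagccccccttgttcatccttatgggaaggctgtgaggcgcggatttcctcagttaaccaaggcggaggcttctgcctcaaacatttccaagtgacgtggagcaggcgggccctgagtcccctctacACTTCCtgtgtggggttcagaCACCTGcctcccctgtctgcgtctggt
Cd247, chr1:165788431-165788710, plus strand: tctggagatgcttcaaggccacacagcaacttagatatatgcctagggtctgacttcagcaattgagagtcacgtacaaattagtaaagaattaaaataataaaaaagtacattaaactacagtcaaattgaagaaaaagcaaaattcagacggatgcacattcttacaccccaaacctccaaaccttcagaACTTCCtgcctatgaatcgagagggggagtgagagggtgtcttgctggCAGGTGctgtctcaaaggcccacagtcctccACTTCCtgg

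The E-box letters were present in all 4 windows, against 19.1% of 32851 windows of the same length in the table. Counted from the start used for the window, Cd3g held them at 148 and 35 bases before, Cd3d at 112 and Cd247 at 10 bases before, and Cd3e at base 4 after. The letters ACTTCC were present in 3 of 4 windows, all but that of Cd3g, against 22.3% of all windows, and they overlapped no E-box match. The TATA letters TATAAA (13.1% of all windows) and the Runx letters TGTGGT (15.6%) were found in none of the 4, on either strand. The motifs were chosen after the windows had been seen, and a match describes the letters only.

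Library totals ran from 17549429 to 25031862 counts, and the 5 genes together took 0.176% to 0.275% of a library. They stood between rank 185 (Cd3g) and rank 767 (Cd3e) of 10509 tested genes by mean level, so counting error was small: the lowest count of any of them in any library was 2914. ConA+SIM replicate 2 stood apart, where 18.4% of tested genes had no count, a share that was 2.76% to 9.98% elsewhere. Libraries also differed in how counts changed with transcript length. The slope of log2 level per doubling of length was 0.083 to 0.30 in the 3 ConA libraries and -0.27 to -0.086 in the 3 ConA+SIM libraries, so shorter transcripts stood higher in ConA+SIM.

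The gated markers were looked up in the RNA. Cd8a, whose protein was gated out, had 0 counts in ConA replicate 2 and ConA+SIM replicate 2, and at most 15.9 CPM (counts relative to library size) elsewhere. By sampling error alone, 0 counts allow up to 0.163 and 0.171 CPM there (3 counts of the unscaled total). Libraries differed by more than sampling noise, so a higher level is possible. Cd8b1, the partner chain of CD8, stood at 17.2, 33.1 and 4.64 CPM in ConA and at 21.8, 54.1 and 42.2 CPM in ConA+SIM. In each group it was highest in the library without Cd8a counts. Klrb1c, which encodes the gated NK1.1 antigen, stood at 6.69, 17.6 and 20.0 CPM in ConA and at 43.5, 43.5 and 39.0 CPM in ConA+SIM, without overlap (log2 fold change 1.51 ± 0.77, SE; edgeR adjusted p = 0.672). Summed levels of the B cell, CD8 T cell, gamma delta T cell, dendritic cell, macrophage, hepatocyte and endothelial lists overlapped between the groups. The log2 fold change was below 0 for 10 of 10 tested genes of the endothelial list and 8 of 11 of the macrophage list. Of all 10509 tested genes, 5462 were below 0. In ConA replicate 2, however, the B cell list stood at 1251 CPM against 112 and 154 CPM in the other ConA libraries and 337 to 810 CPM in ConA+SIM. The endothelial list stood there at 2159 CPM against 385 and 755 CPM in the other ConA libraries and 428 to 725 CPM in ConA+SIM. That library also had the lowest share of counts in the 5 genes (0.176%) and the lowest Cd3g, Cd3e and Cd247 levels. The summed levels of the neutrophil list (274 to 455 CPM in ConA, 583 to 932 CPM in ConA+SIM) and the erythroid list (43.8 to 115 and 229 to 343 CPM) did not overlap. Of the neutrophil genes, S100a8 and S100a9 had log2 fold changes of 1.41 and 1.2, but Retnlg and Csf3r had -0.45 and -0.62. Ly6g had 0 counts in all libraries. The part of these lists in the results on the CD3 genes was not tested. The constant-region genes of the receptor, Trac, Trbc1, Trbc2 and Trdc, were not analysed here. The defining markers of a CD4+ T cell, Cd4 and the 4 CD3 chain genes, were present in every library at 154 CPM or more.

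Setting ConA+SIM against ConA addresses what oral simvastatin does to the CD4+ T cells of the inflamed liver. The values of the 5 genes lay in both directions. Cd247, Cd3d and Cd3g had higher values in all 3 ConA+SIM libraries than in any ConA library, by 1.14, 0.77 and 0.64 on the log2 scale, whereas Cd3e and Cd4 overlapped between the groups and had lower means in ConA+SIM. No member passed the edgeR quasi-likelihood test at an adjusted p of 0.05, where 57 of the 10509 tested genes passed (0.542%, all higher). That count was 0 with the length correction described for Cd247 and 0 to 3 when any 1 library was left out. At an unadjusted p under 0.05, 3 of 5 members were higher and 0 lower, against 5.31% and 3.54% of tested genes (8.85% in all). Groups that did not overlap were seen in the same 3 members with ConA+SIM above and in 0 with ConA+SIM below, against 9.18% and 8.57% of tested genes (17.8% in all). DESeq2 called these 3 members higher at an adjusted p under 0.05, where it called 3.39% of tested genes higher and 5.28% in all. With limma-voom and sample quality weights Cd247 alone was called, against 1.21% of tested genes higher and 1.3% in all. Without ConA+SIM replicate 2, the library with the most genes at 0, the log2 fold changes were 1.00 for Cd247, 0.85 for Cd3d, 0.72 for Cd3g, -0.68 for Cd3e and -0.21 for Cd4, and 0 members passed. Without ConA replicate 2, the library with the high B cell and endothelial levels, they were 1.01, 0.67, 0.46, -0.62 and -0.43 in the same order, and again 0 members passed.

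**Figure D1:**
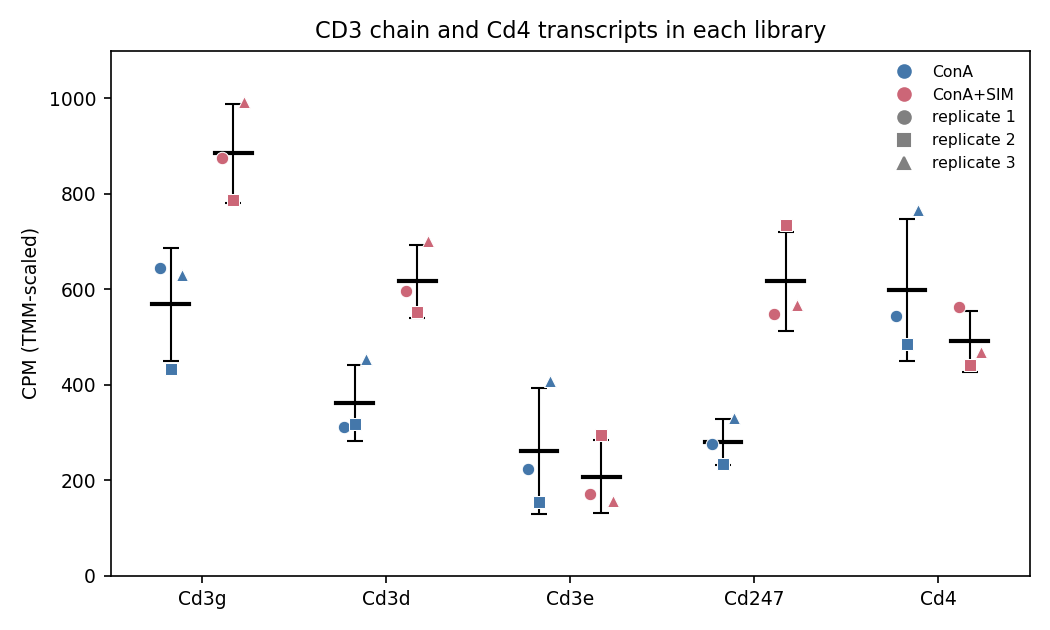
TMM-scaled CPM of Cd3g, Cd3d, Cd3e, Cd247 and Cd4 in each of the 6 libraries, with ConA in blue, ConA+SIM in red and replicate numbers as symbols; bars show the group mean and SD (n = 3). Cd3g, Cd3d and Cd247 separate the groups, whereas Cd3e and Cd4 overlap.

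Cd247 encodes zeta, the chain with the most ITAMs in the complex. Its level was 276, 234 and 331 CPM in the ConA libraries, in the order of their replicate numbers, and 548, 736 and 567 CPM in the ConA+SIM libraries (280 ± 48.6 and 617 ± 103 CPM, SD, n = 3). All 3 ConA+SIM libraries were above all 3 ConA libraries, and ConA+SIM replicate 2 was the highest. The log2 fold change was 1.14 ± 0.22 (SE; 95% interval 0.64 to 1.64), short of the threshold (edgeR adjusted p = 0.0743). The counts are per gene and do not separate the zeta transcript from the alternatively spliced eta transcript. With offsets that removed each library's trend with transcript length, the value was 0.84 (edgeR adjusted p = 0.404), and with length and GC content together 0.98.

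NK cells also express Cd247. Of 11 tested genes of the NK cell and ILC1 list, 10 had a log2 fold change above 0, against 5047 of all 10509 tested genes. In 5 of the 11, every ConA+SIM library was above every ConA library, against 9.18% of tested genes. Fcer1g (log2 fold change 0.05), Prf1 (0.18), Tyrobp (0.37) and Eomes (0.68) overlapped. The summed level of the list was 582 to 728 CPM in ConA and 1099 to 1327 CPM in ConA+SIM. Of the receptor genes in that list, Klrb1c, Klrd1 (15.3 to 68.6 CPM in ConA, 139 to 178 CPM in ConA+SIM) and Klrc1 (at most 97.3 and 124 to 225 CPM) stood higher in every ConA+SIM library, Klrk1 and Klre1 overlapped, and Ncr1 and Klra8 had 0 counts in all 6 libraries. Several genes of that list, Gzma, Nkg7 and Klrd1 among them, are also expressed by activated T cells. The part of NK cells in the Cd247 difference was not tested. In bulk RNA, fewer cells of a type and less RNA per cell cannot be told apart.

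Cd3d encodes delta, a partner of epsilon. It stood at 312, 318 and 453 CPM in ConA and at 596, 553 and 702 CPM in ConA+SIM, which gave 361 ± 79.7 and 617 ± 76.4 CPM. Every ConA+SIM library lay above every ConA library. The log2 fold change of Cd3d was 0.77 ± 0.22 (95% interval 0.28 to 1.27; edgeR adjusted p = 0.286). Length correction lowered it to 0.46, and length and GC correction to 0.44.

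Cd3g encodes gamma, the other partner of epsilon, which also carries a sorting signal for receptor internalisation. It had the highest mean over the 6 libraries of the 5, though Cd4 stood above it in ConA replicates 2 and 3, and lay at 645, 433 and 629 CPM in ConA and 876, 786 and 993 CPM in ConA+SIM. ConA replicate 2 was the lowest library. The means were 569 ± 118 and 885 ± 104 CPM, a log2 fold change of 0.64 ± 0.21 (95% interval 0.17 to 1.11; edgeR adjusted p = 0.377). Its transcript, of 1023 nt, is the shortest of the 5, and its value moved most with the length correction, to 0.039. With GC content added the sign turned, to -0.21 (edgeR adjusted p = 1.0).

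Cd3e encodes epsilon, which enters both the gamma and the delta dimer and is the chain bound by common anti-CD3 antibodies. Its level was 223, 154 and 409 CPM in ConA and 171, 295 and 156 CPM in ConA+SIM (262 ± 132 and 207 ± 76.4 CPM). The groups overlapped: ConA replicate 3 was the highest library, ConA+SIM replicate 2 the second and ConA replicate 2 the lowest. The log2 fold change was -0.34 ± 0.40 (95% interval -1.23 to 0.55; edgeR adjusted p = 0.999), an interval that holds changes in either direction. Without ConA replicate 3 it was 0.16, and without ConA+SIM replicate 2 it was -0.68. After length correction it was -0.67 (edgeR adjusted p = 0.852).

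Cd4 stood at 545, 485 and 766 CPM in ConA and 562, 441 and 469 CPM in ConA+SIM (599 ± 148 and 491 ± 63.3 CPM). Only ConA replicate 3 lay above all ConA+SIM libraries. The log2 fold change was -0.29 ± 0.22 (95% interval -0.79 to 0.22; edgeR adjusted p = 0.94), and it was -0.045 without ConA replicate 3. Its transcript, of 3108 nt, is the longest of the 5, and the value with length and GC correction was 0.015. Mouse plasmacytoid dendritic cells can also carry CD4. Of 6 tested markers of that cell, 6 had a log2 fold change above 0, against 5047 of all 10509 tested genes. In 4 of the 6, every ConA+SIM library was above every ConA library, against 9.18% of tested genes, while Tcf4 and Cd300c overlapped. The summed level of the list was 119 to 193 CPM in ConA and 287 to 422 CPM in ConA+SIM, whereas the mean of Cd4 was lower. The part of these cells in the Cd4 level was not tested.

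**Figure D2:**
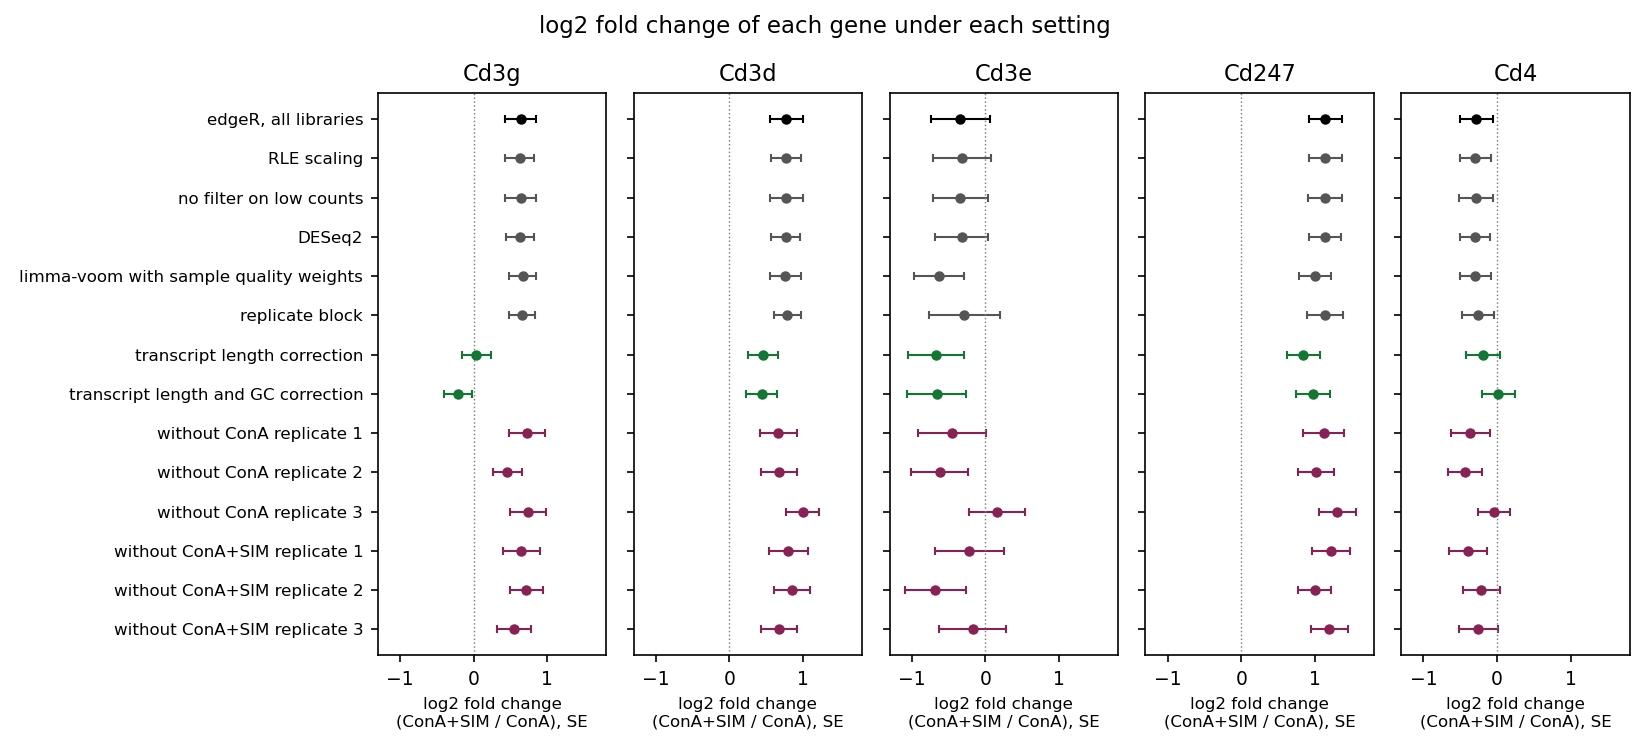
log2 fold change (ConA+SIM over ConA) of each gene on the x axis with its SE, for the edgeR fit of all libraries and 13 alternatives on the y axis; green marks the length corrections and purple the fits that leave out a library. Cd247 stays between 0.84 and 1.30 and Cd3d between 0.44 and 0.99, while Cd3g falls to 0.039 and -0.21 under the length corrections and Cd3e turns to 0.16 without ConA replicate 3.

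The spread within groups was widest for Cd3e. Its pooled within-group SD of log2 CPM was 0.61, a value larger than that of 87.1% of the 2231 tested genes with a mean of at least 100 CPM, whose median was 0.37. For Cd247 the SD was 0.24, for Cd3g 0.26, for Cd3d 0.25 and for Cd4 0.28, all below that median. Cd3e was thus the least precise of the 5 measurements even though no library held fewer than 2914 of its counts.

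Levels of different genes were compared per kb of transcript. In ConA, Cd3g stood at 556 ± 116 CPM per kb, above Cd3d at 223 ± 49.3, Cd4 at 193 ± 47.7, Cd3e at 179 ± 90.3 and Cd247 at 172 ± 29.8 CPM per kb. The last 4 in that order overlapped with each other in their library values, and Cd3g lay above all of them in every library. In ConA+SIM, Cd3g stood at 865 ± 101 CPM per kb, followed by Cd3d at 382 ± 47.2 and Cd247 at 378 ± 63.4, and then by Cd4 at 158 ± 20.4 and Cd3e at 142 ± 52.2 CPM per kb. Cd3d and Cd247 overlapped with each other, as did Cd4 and Cd3e, but the lowest value of the first pair, 336 CPM per kb, lay above the highest of the second, 202 CPM per kb. The value per kb rests on 1 transcript per gene and is the level of that transcript only where the others are rare. Division by length does not remove the trend with transcript length that differed between libraries. The part of that trend in these orders was not tested.

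**Figure D3:**
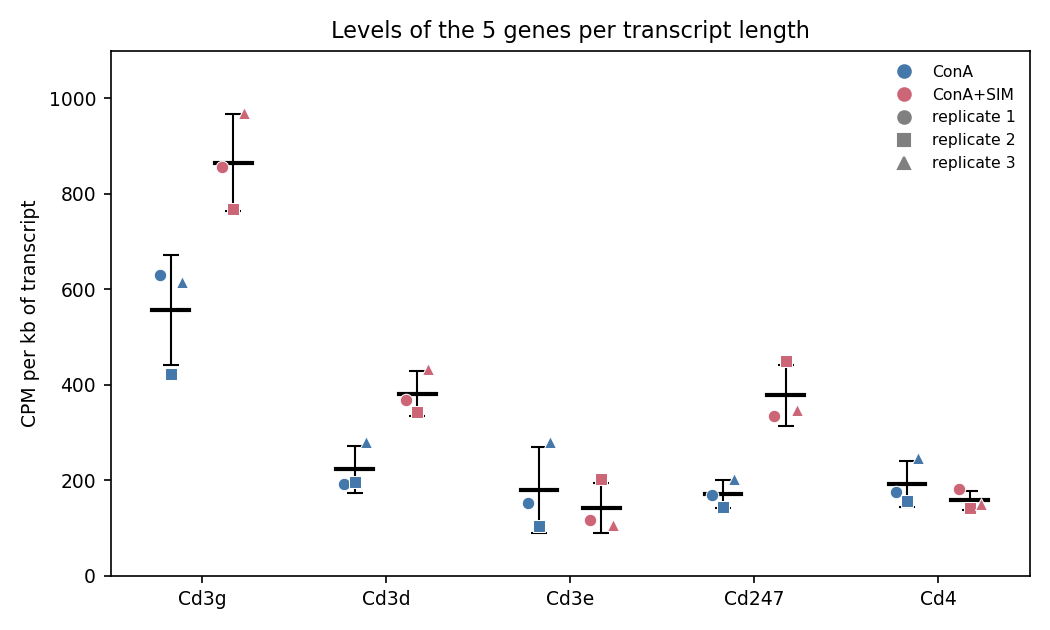
Level of each gene in CPM per kb of its representative transcript, by library (ConA blue, ConA+SIM red; bars give mean and SD, n = 3). Cd3g is highest in both groups, and Cd3d and Cd247 lie above Cd3e and Cd4 in ConA+SIM but overlap with them in ConA.

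Ratios of counts within a library do not depend on scaling, so each gene was set against Cd3e. They were not corrected for the trend with transcript length, which differed between libraries and is not removed by a ratio of genes of unlike length. With length correction, for example, the log2 fold change was -0.19 for Cd4 and -0.67 for Cd3e, against -0.29 and -0.34 without it. The ratio of Cd247 to Cd3e was 1.24, 1.52 and 0.808 in ConA and 3.21, 2.50 and 3.64 in ConA+SIM. The groups did not overlap, and the geometric mean of the ratio was 2.68-fold higher in ConA+SIM (log2 difference 1.42), with p = 0.1 by an exact two-sided permutation test over libraries, the smallest p that 3 against 3 allows, and 0.4 after adjustment over the 4 ratios. The ratio of Cd3d to Cd3e was 1.40, 2.07 and 1.11 in ConA and 3.49, 1.88 and 4.51 in ConA+SIM. It overlapped, since ConA+SIM replicate 2 lay below ConA replicate 2 (log2 difference 1.07, exact permutation p = 0.2, adjusted 0.4). Cd3g to Cd3e ran at 2.89, 2.82 and 1.54 in ConA and 5.13, 2.67 and 6.38 in ConA+SIM, again with ConA+SIM replicate 2 among the ConA values (log2 difference 0.93, exact permutation p = 0.3). Cd4 to Cd3e was 2.44, 3.16 and 1.87 in ConA and 3.29, 1.50 and 3.01 in ConA+SIM, a log2 difference of 0.013 (exact permutation p = 1.0). These 4 ratios share Cd3e, so the high Cd3e count of ConA replicate 3 and the high Cd3e level of ConA+SIM replicate 2 enter each of them.

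**Figure D4:**
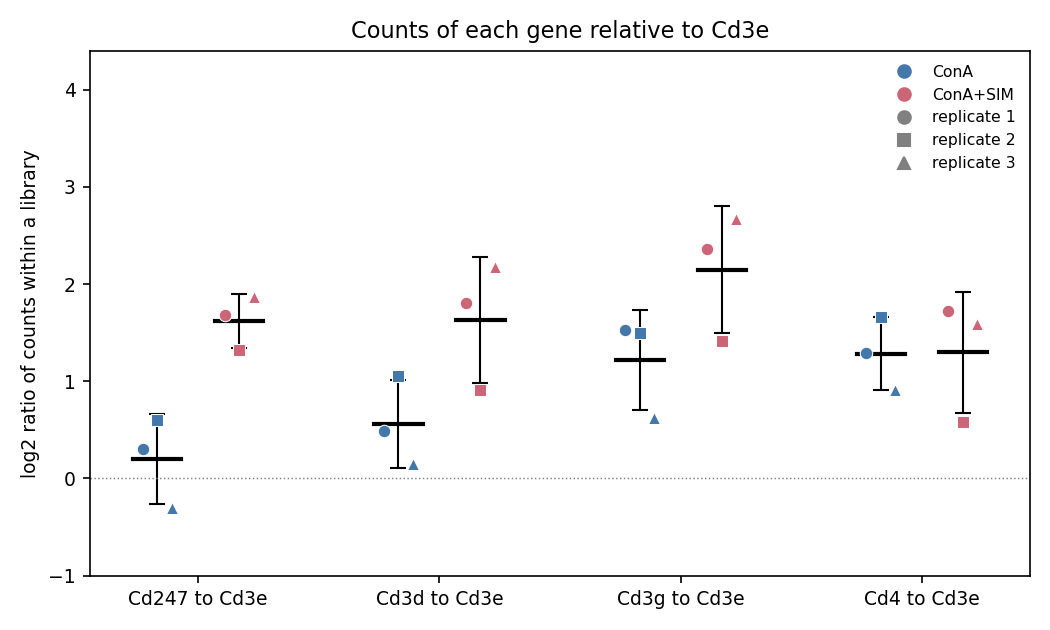
log2 ratio of the counts of Cd247, Cd3d, Cd3g and Cd4 to those of Cd3e within each library (ConA blue, ConA+SIM red; bars give mean and SD, n = 3). The groups are apart for Cd247, and ConA+SIM replicate 2 falls among the ConA libraries for Cd3d and Cd3g.

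**Figure D5:**
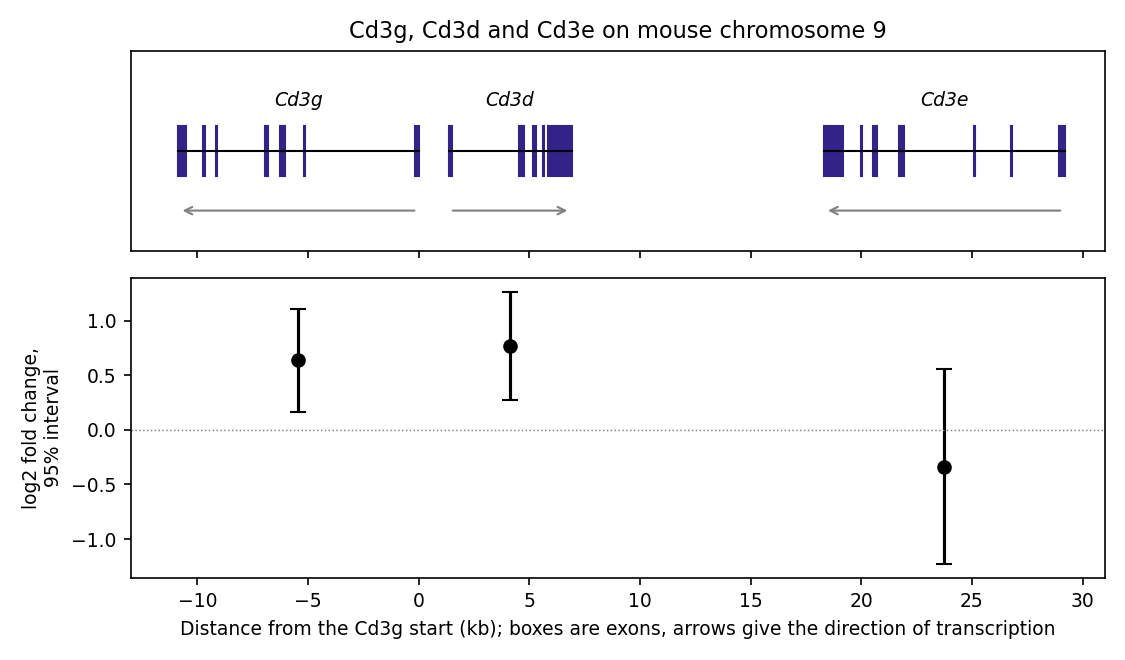
Top, exons and direction of transcription of Cd3g, Cd3d and Cd3e along chromosome 9 by distance from the Cd3g start in kb; bottom, the log2 fold change (ConA+SIM over ConA) of each gene with its 95% interval. The intervals of the head-to-head pair Cd3g and Cd3d lie above 0 (unadjusted), and that of Cd3e runs from -1.23 to 0.55. The values shown are without length correction, with which Cd3g stood at 0.039 and Cd3d at 0.46.

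Within the chromosome 9 cluster, the map of the 3 genes shows values of 0.64 (Cd3g) and 0.77 (Cd3d) for the head-to-head pair and -0.34 for Cd3e. None of the 3 genes passed the edgeR test. With length correction Cd3g stood at 0.039, Cd3d at 0.46 and Cd3e at -0.67. With GC content added Cd3g stood at -0.21 and Cd3d at 0.44, so the pair did not keep a shared direction. Pearson's r of log2 CPM over the 6 libraries, a description in which the libraries share group and depth, was 0.88 between Cd3d and Cd3g, 0.89 between Cd3d and Cd247, and 0.85 between Cd3g and Cd247. Cd3e gave -0.059 with Cd3d, -0.064 with Cd3g and 0.054 with Cd247, and 0.60 with Cd4. Of the 4272 other genes with a mean of at least 50 CPM, 136 resembled Cd3d more closely than Cd247 did, and 148 more closely than Cd3g did.

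The genes most like each member over the 6 libraries were found by the same r, among those 4272 genes, and none of them was another member. Closest to Cd247 were Gtf2b, a general transcription factor gene (r = 0.998, log2 fold change 1.76), and the ribosomal protein genes Rpl41 (r = 0.996) and Rps21 (r = 0.988). Rpl41 and Rps21 were among the 57 genes that rose in ConA+SIM, by 1.15 and 1.26 on the log2 scale (edgeR adjusted p = 0.0331 for each). After length correction those values were 0.21 and 0.068, and the calls ended. Closest to Cd3g were Rsl1d1, Zmat2 and Crtc2 (r of 0.994 to 0.995), and closest to Cd3d the cell cycle kinase subunit gene Cks2, the RNA-binding protein gene Hnrnpc and Ppp4r3b (r of 0.986 to 0.990). Cd3e resembled Dusp10, a MAP kinase phosphatase gene, the transcription elongation gene Rtf1 and the vesicle coat gene Sec24c (r of 0.972 to 0.990). Cd4 resembled the translation elongation factor gene Eef1g, the tubulin gene Tubb4b and Vps4a (r of 0.955 to 0.988). With 6 libraries and 4272 candidates the highest r is near 1 by selection, and these names describe the pattern only.

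Other T cell identity genes lay on both sides of 0. Cd5, Cd2, Cd28 and Lck, the 4 other tested genes of the T cell list, had a median log2 fold change of 0.046. Of these, 2 were above 0, 2 below it and 0 past the test, while the median of all tested genes was -0.041. Cd2 was low, at 1.94 to 21.1 CPM over all libraries, and its log2 fold change of -0.51 ± 1.96 (SE) was imprecise. Lck, the kinase that CD4 carries, ran from 197 to 416 CPM in ConA and from 255 to 383 CPM in ConA+SIM.

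Among 39 genes that act next to the receptor, 17 stood higher and 22 lower in the ConA+SIM mean, with a median log2 fold change of -0.061, and 0 passed the edgeR test over all genes. At an unadjusted p under 0.05, 4 were higher and 3 lower (17.9% together, against the 8.85% of all tested genes given above), and DESeq2 called 3 higher and 3 lower, the same 6 that had the smallest edgeR adjusted p. These 6 included brakes on signalling. Dgkz, a kinase that removes the second messenger diacylglycerol, had a mean of 463 ± 56.5 CPM in the ConA libraries against 259 ± 36.3 CPM in those of ConA+SIM (log2 fold change -0.84 ± 0.21, edgeR adjusted p = 0.223). Ptpn6, which encodes the phosphatase SHP-1, stood at 391 ± 118 and 168 ± 63.2 CPM (-1.22 ± 0.34, edgeR adjusted p = 0.27). Ctla4, an inhibitory receptor that competes with CD28, had the opposite sign (0.69 ± 0.25, edgeR adjusted p = 0.416).

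The other 3 are adaptors. Trat1, which encodes TRIM, a membrane adaptor that associates with the receptor and the zeta chain, stood at 62.3 ± 33.3 CPM in ConA and 144 ± 24.2 CPM in ConA+SIM (log2 fold change 1.21 ± 0.42, edgeR adjusted p = 0.392). Themis, an adaptor of the LAT complex, had a value of 0.88 ± 0.33 and Grb2, which links LAT to Ras activation, one of -0.77 ± 0.27. The groups did not overlap in 9 of the 39 genes of the list (23.1%, against 17.8% of all tested genes), among them these 6, which were chosen for their small p. For Zap70, the kinase that the phosphorylated ITAMs recruit, the means were 231 ± 74.4 and 217 ± 77.7 CPM with overlapping libraries (log2 fold change -0.092 ± 0.35). With length correction Dgkz stood at -0.67, Ctla4 at 0.47, Trat1 at 1.46, Themis at 1.22, Ptpn6 at -1.37 and Grb2 at -0.75. With length and GC correction together the values were -0.15, -0.090, 0.62, 0.40, -1.09 and -0.58 in the same order.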

How the data were processed

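The 6 libraries, 3 per group, are RNA sequencing of sorted mouse liver CD4+ T cells. The authors deposited raw counts per gene symbol, not normalized, and each column carries a sample title; 0 columns were left unused. HISAT2 2.1.0 and GRCm38 are named in the submitters' processing notes, whereas the sources used here give no counting tool, annotation release, strand setting or rule for multiply matching reads. Genes were filtered with filterByExpr, scaled with TMM and tested with the quasi-likelihood F test of edgeR 4.0.16 in R 4.3.3 (ConA+SIM over ConA, no covariates, robust fit). Adjustment of p was by Benjamini-Hochberg over 10509 genes, with a threshold of 0.05, and the SE is the log2 fold change divided by the root of F. The procedure was tested on simulated data. Library pairs within a group differed by more than sampling noise (chi-square 142 to 298 times its degrees of freedom).

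Lengths and GC contents were those of GENCODE release M21, with 1 APPRIS principal (or else longest) transcript per gene, found for 99.5% of tested genes. Alternatives were RLE scaling, no filter, DESeq2 1.42.0, limma-voom (limma 3.58.1) with quality weights, each library left out in turn, a replicate block, and offsets against transcript length. Offsets against length and GC together were added after seeing the data. Members and lists were chosen with earlier results of these data known. Genes named are the 5 members, the antigen receptor, coreceptor and NK1.1 genes, the 3 genes most like each member, 6 of 39 receptor-proximal genes with the smallest adjusted p, and up to 4 others. Lck and Zap70, and the marker genes given as values, were chosen as their function bears on a member.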

Additional observations from a re-analysis of the deposited data

How the results depend on the processing

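Of 351 log2 fold changes of 27 named genes over 13 alternatives, 343 kept their direction, 16 were newly called (15 of them by DESeq2) and 18 lost a call, all of Rpl41 and Rps21. Under length and GC correction the sign turned for Cd3g (-0.21), Cd4 (0.015), Sec24c (0.28), Hnrnpc (-0.006) and Ctla4 (-0.090). When a library was left out, Cd3e ran from -0.68 to 0.163, Dusp10 from -0.472 to 0.258 and Rtf1 from -0.596 to 0.073, with the sign turned without ConA replicate 3. The log2 difference of the Cd4 to Cd3e ratio ran from -0.198 to 0.37 when a library was left out, and turned without ConA replicate 3 (-0.176), ConA+SIM replicate 1 (-0.198) or ConA+SIM replicate 3 (-0.134). That of the Cd247 to Cd3e ratio ran from 1.17 to 1.62. DESeq2 called 555 genes and 3 members and limma-voom with quality weights 137 genes and 1 member, against 57 and 0 by edgeR. Leaving out a library gave 0 to 3 called genes and 0 members. Length correction gave 0 calls, with or without GC content. The cause of these changes was not tested, and the fits that leave a library out also hold fewer libraries.

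With the replicate number as a block, 0 genes were called, the log2 difference of the Cd247 to Cd3e ratio was 1.42 (exact sign-flip p = 0.25, the smallest 3 pairs allow), and no member was called. Same-numbered libraries share only a number: the correlations of their deviations from the group means were 0.106, 0.056 and -0.085, and not every library correlated best with its own number. No count of the 5 genes in any library was below 2914, and what kept them short of the edgeR threshold was not tested.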
